A study of Mus musculus with 45 samples.

Results

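This report describes the expression of 10 genes of Notch signalling and secretory cell fate, namely Atoh1, Spdef, Gfi1, Hes1, Hes6, Dll1, Dll4, Jag1, Notch1 and Notch2, in small intestinal tuft cells of mice fed a high fat diet (HFD) or a low-fat reference diet (RFD). They were looked up by symbol and are 10 of the 47729 genes in the deposited tables. The cells came from male C57BL/6J mice, 5 weeks old at arrival and housed at thermoneutrality, that received RFD with 10% fat or HFD with 60% fat. The paper's methods name the sorted cells EpCAM+CD45+Siglec-F+, but also state that cells with CD45 were left out, so the CD45 gate is unclear. Each of the 45 libraries, made by Smart-seq2, held the cells of 1 mouse. There were 11 RFD and 11 HFD libraries in the set labelled STF, taken here as 9 weeks of feeding, and 11 RFD and 12 HFD libraries in the set labelled LTF, taken as 22 weeks. The sample labels give 9 weeks for both sets, so an effect of feeding time and one of the library set cannot be told apart.

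The libraries held 189340 to 4690213 reads on genes. All 14 tuft cell markers examined (Dclk1, Trpm5, Il25 and others) were detected in each of the 4 groups, but their summed level ran from 386.6 to 26807 normalized counts per 1000000 reads (CPM), with a median of 15121. In the HFD library of mouse 80 at 9 weeks, which had the lowest tuft sum, the 7 Paneth cell markers summed to 600676 CPM. CPM are scaled by a normalization factor, 0.54 in this library, so this sum is not a share of its reads. The RFD library of mouse 3 at 22 weeks held reads of 8580 genes, against 10877 to 22337 in the other libraries. These libraries and those of RFD mouse 40 and HFD mouse 50 at 9 weeks, which had under 500000 reads, are called the 4 libraries that stand apart, and results are also given without them where they matter.

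Notch signalling decides between absorptive and secretory fate in the intestinal crypt. A cell that presents the ligands Dll1, Dll4 or Jag1 activates the receptors Notch1 and Notch2 on its neighbour, the freed intracellular part of the receptor joins the DNA-binding factor RBPJ, and the repressor gene Hes1 is switched on. HES1 represses Atoh1, the transcription factor gene that starts the secretory programme, and cells that escape Notch signals express Atoh1 and become goblet, Paneth or enteroendocrine cells, with Spdef and Gfi1 acting after Atoh1. Whether tuft cells of the small intestine pass through an Atoh1-dependent step has been debated, and Pou2f3 is the transcription factor they require.

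None of the 10 genes passed the test for a difference between diets. Of the 10, 8 passed the low-count filter (over 5 reads in 6 or more libraries), and 0 of the 8 had an adjusted p under 0.1 at 9 weeks, at 22 weeks or over both times (quasi-likelihood test of edgeR, p-values adjusted by Benjamini-Hochberg over 14020 genes). The share of all tested genes called was 3.07% at 9 weeks, 0.728% at 22 weeks and 12.0% over both times. For the difference between the diet effects at the 2 times, 0 of the 8 and 0.00713% of all genes passed. At an unadjusted p under 0.05 there was 1 gene at 9 weeks (Notch2), 0 at 22 weeks, 0 over both times and 1 for the difference between times (Notch2 again), beside 18.2%, 10.3%, 23.7% and 3.27% of all tested genes. With limma 0 of the 8 passed in each comparison. DESeq2 called 0 of those it gave an adjusted p, which were 5 of the 8 at each time (none for Dll4, Jag1 and Notch2), 7 over both times (none for Jag1) and 8 for the difference. The median log2 fold change of the 8 was 0.39 at 9 weeks and 0.11 at 22 weeks, beside medians of -0.05 and -0.03 over all tested genes.

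Per transcript length, as TPM (transcripts per 1000000), Hes6 stood far above the other genes. Over the 45 libraries it averaged 38.4 ± 15.6 TPM (SD), it was the highest of the 10 genes in 44 libraries, and its mean was above that of 86.7% of the tested genes. Dll1 followed with 7.23 ± 4.10 TPM, Spdef with 6.62 ± 3.86, Atoh1 with 4.78 ± 4.04, Notch1 with 2.67 ± 3.81 and Dll4 with 1.54 ± 1.58 TPM. Hes1, Notch2, Jag1 and Gfi1 lay at 0.528, 0.498, 0.331 and 0.299 TPM on average. Neighbours in this order were compared over the 45 libraries by a sign-flip permutation test of log2(TPM + 1), adjusted over 9 pairs. Hes6 was above Dll1 in 45 of 45 libraries (adjusted p = 9e-05), Spdef was above Atoh1 in 26 and below it in 17 (adjusted p = 0.0024), Atoh1 was above Notch1 in 30 (adjusted p = 0.056), and Dll4 was above Hes1 in 29 (adjusted p = 9e-05). Dll1 and Spdef did not differ beyond their spread (adjusted p = 0.412), nor did Notch1 and Dll4 (0.11), Hes1 and Notch2 (0.802), Notch2 and Jag1 (0.366), or Jag1 and Gfi1 (0.421).

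**Figure D1:**
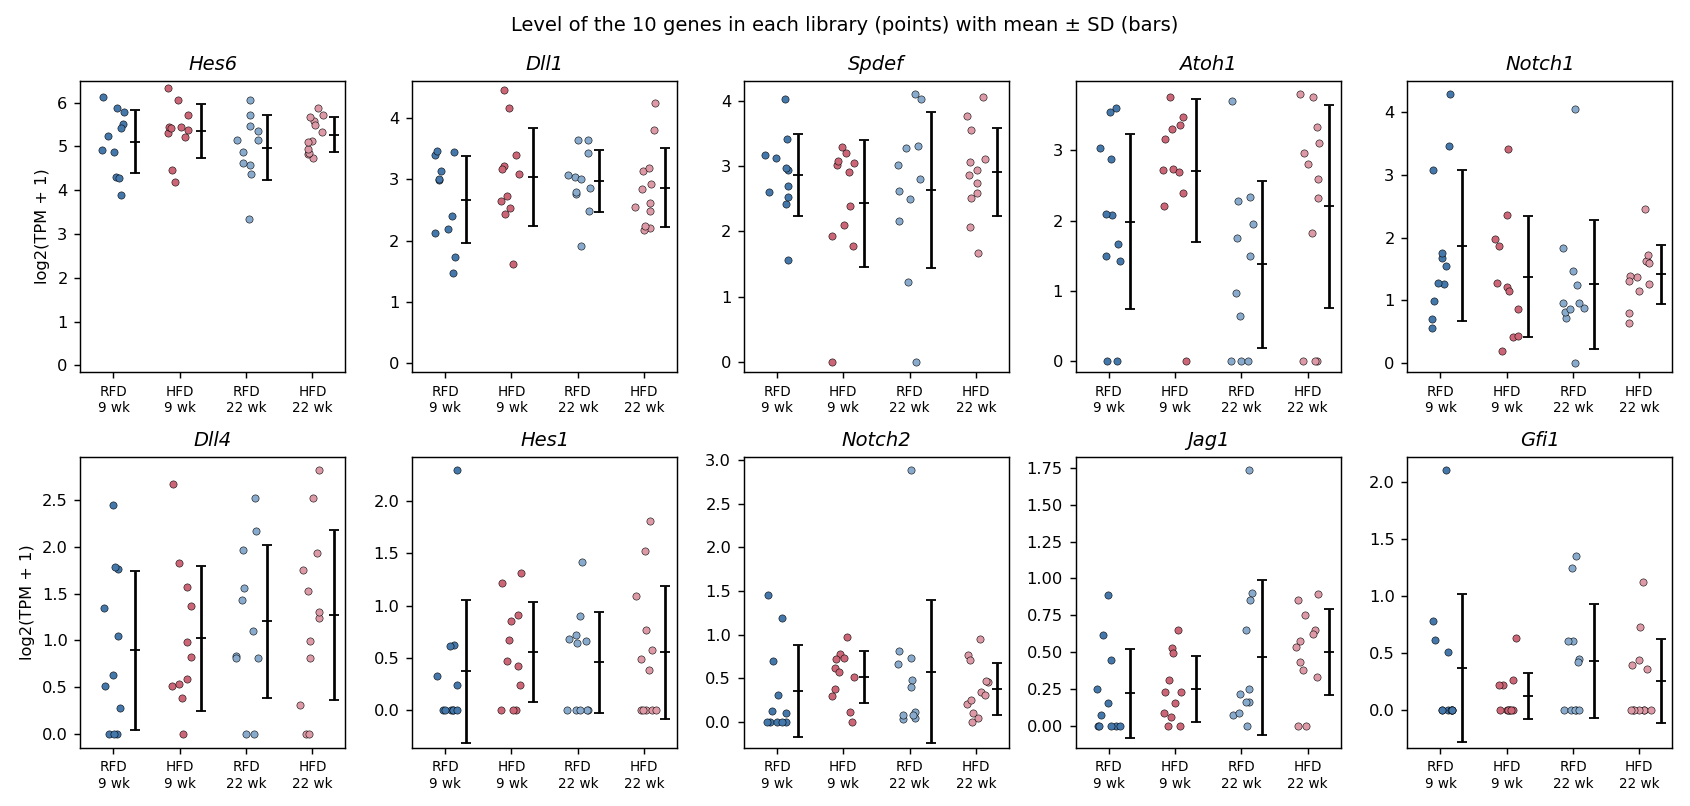
Level of each of the 10 genes, as log2(TPM + 1) on the vertical axis, in the RFD and HFD groups at 9 and 22 weeks (11, 11, 11 and 12 libraries). Each point is 1 library and each bar the mean ± SD on that scale; the vertical scale differs between panels. Hes6 and Dll1 had reads in every library, Atoh1 was at 0 in 9 libraries, and 1 RFD library at 22 weeks stood alone for Notch2 at 6.37 TPM.

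Atoh1 (ENSMUSG00000073043, chromosome 6, 64729125 to 64731245, plus strand, GRCm38 with GENCODE M21) encodes the basic helix-loop-helix factor on which goblet, Paneth and enteroendocrine cells depend. At 9 weeks its level ran from 0 through a median of 7.59 to 38.1 CPM in the RFD libraries, and from 0 through 20.6 to 58.6 CPM in the HFD libraries. At 22 weeks it ran from 0 through 3.84 to 23.4 CPM on RFD and from 0 through 11.7 to 23.4 CPM on HFD. The ranges overlapped at both times, and 9 of 11 HFD libraries at 9 weeks and 9 of 12 at 22 weeks lay above the RFD median. The group means were 12.8 ± 12.4 and 22.6 ± 16.8 CPM at 9 weeks (RFD and HFD, SD, n = 11 each) and 5.35 ± 6.80 and 11.8 ± 9.27 CPM at 22 weeks (SD, n = 11 and 12). The log2 fold change of HFD over RFD was 0.93 (SE 0.66, edgeR adjusted p = 0.471) at 9 weeks, 1.06 (SE 0.75, adjusted p = 0.662) at 22 weeks and 0.97 (SE 0.52, 95% confidence interval -0.05 to 2.01, adjusted p = 0.239) over both times.

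With 1 library left out, the Atoh1 difference over both times stayed between 0.90 and 1.30 on the log2 scale, and 1 library decided whether it passed. Without the RFD library of mouse 1 at 22 weeks, which held the highest Atoh1 level of its group, the log2 fold change was 1.30 and the adjusted p 0.083, the only instance in which a member passed the threshold when 1 library was left out. Without the 4 libraries that stand apart it was 0.83 (adjusted p = 0.353). The labels name no series of mice. For description, the numbers in the library titles were sorted into 3 series, with 2 libraries in none. The series are 1 to 8, multiples of 10, and other numbers from 21 to 64. Within them, HFD minus RFD in mean log2(CPM + 1) of Atoh1 was above 0 in each series at 9 weeks (0.39 in the multiples of 10 and 0.73 in the last series) and was 1.53, -1.36 and 1.74 at 22 weeks, with 3 or 4 libraries per diet, so that the multiples of 10 went the other way at 22 weeks. Since the libraries are bulk samples of sorted cells, fewer cells of a type and less RNA per cell cannot be told apart, and this holds for every gene below.

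Goblet cell markers went in the direction of Atoh1, whose own difference did not pass. Of the 8 goblet markers, 3 rose over both times (Spink4, Ccl6 and Tff3, with log2 fold changes of 1.68, 1.52 and 0.82 and adjusted p of 0.0457, 0.0726 and 0.0939) and 0 fell. This was 37.5%, beside 12.0% of all tested genes. Within a time, 1 of the 8 was called at 9 weeks and 0 at 22 weeks, beside 3.07% and 0.728% of all tested genes. The summed level of the goblet markers ran from 69.6 through a median of 2571 to 6142 CPM on RFD and from 1871 through 3491 to 8338 CPM on HFD at 9 weeks, and from 103.4 through 1365 to 3922 and from 252.6 through 2555 to 4806 CPM at 22 weeks. With the tuft markers relative to those of the other epithelial types as a covariate, the log2 fold change of Atoh1 was -0.11 at 9 weeks (adjusted p = 0.985), 1.04 at 22 weeks (adjusted p = 0.665) and 0.45 over both times (adjusted p = 0.723). The part of the cell mixture in the Atoh1 difference was not tested further.

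Spdef (ENSMUSG00000024215, chromosome 17, 27714352 to 27728955, minus strand) encodes an ETS factor of goblet and Paneth cell maturation. It ran from 5.18 through a median of 11.7 to 24.2 CPM on RFD and from 0 through 10.2 to 28.2 CPM on HFD at 9 weeks. At 22 weeks it ran from 0 through 8.80 to 26.9 CPM on RFD and from 3.10 through 11.1 to 21.6 CPM on HFD. The groups overlapped at both times, with log2 fold changes of 0.09 (SE 0.47, adjusted p = 0.945) and 0.12 (SE 0.46, adjusted p = 0.955). Over both times it was 0.10, with a 95% confidence interval from -0.55 to 0.76.

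Gfi1 (chromosome 5, 107716657 to 107726036, minus strand), a zinc finger repressor that acts after Atoh1 in Paneth and goblet precursors, was barely detected. It had 37 reads among the 86333138 of the 45 libraries, 0 reads in 26 libraries and at most 6 in any, and it did not pass the low-count filter. Over a group this came to 0.302 reads per 1000000 on RFD and 0.342 on HFD at 9 weeks, and to 0.860 (exact Poisson 95% interval 0.501 to 1.38) on RFD and 0.262 (0.0960 to 0.570) on HFD at 22 weeks. These intervals cover counting error only. With no filter its log2 fold changes were -0.65 and -1.28 (adjusted p = 0.941 and 0.678). Its paralog Gfi1b, a gene of mature tuft cells, averaged 62.7 TPM.

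Hes1 (chromosome 16, 30064384 to 30067796, plus strand), the textbook target of Notch signalling in the crypt, was near the limit of detection too. It had 61 reads in all, 0 reads in 19 of 45 libraries and at most 7 in any. A library with 0 reads allows a level of up to about 3 reads of its total. Over all 45 libraries this limit ran from 0.640 to 15.8 reads per 1000000 (median 1.84), without the normalization used for CPM. Over a group it came to 0.388 reads per 1000000 (exact Poisson 95% interval 0.178 to 0.737) on RFD and 0.977 (0.597 to 1.51) on HFD at 9 weeks. At 22 weeks the values were 0.658 (0.350 to 1.13) and 0.829 (0.499 to 1.29). It did not pass the filter, and with no filter its log2 fold changes were 0.79 (SE 1.16, adjusted p = 0.838) and 0.40 (SE 1.01, adjusted p = 0.952). No diet difference was detected, and the part of depth in this was not tested.

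Hes6 (chromosome 1, 91411483 to 91414038, minus strand) encodes a relative of HES1 that is known to oppose HES1 and is itself not switched on by Notch. It had reads in all 45 libraries. At 9 weeks it ran from 22.98 through a median of 49.99 to 91.9 CPM on RFD and from 41.7 through 58.4 to 112.9 CPM on HFD. At 22 weeks it ran from 8.77 through 41.4 to 73.0 CPM on RFD and from 29.9 through 43.6 to 67.0 CPM on HFD. At 9 weeks 3 of 11 HFD libraries lay above all RFD libraries, and at 22 weeks none did. HFD over RFD was 0.37 on the log2 scale (SE 0.26, adjusted p = 0.452) at 9 weeks, 0.09 (SE 0.25, adjusted p = 0.939) at 22 weeks and 0.23 over both times (SE 0.17, adjusted p = 0.431). The 95% confidence interval of the last, from -0.12 to 0.58, is the narrowest among the 8 tested genes.

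The promoters of Atoh1, Hes6 and Spdef are shown because these genes varied together from library to library, Hes6 at the highest level of the 10. They are the 250 bases before the RefSeq transcription start (GRCm38.p6, 5′ to 3′ on the gene's strand), at chr6:64728875-64729124 (plus), chr1:91414039-91414288 (minus) and chr17:27728952-27729201 (minus). Capitals mark the RBPJ core TGGGAA and the E-box CANNTG, the site of basic helix-loop-helix factors such as ATOH1, both searched on both strands.
Atoh1: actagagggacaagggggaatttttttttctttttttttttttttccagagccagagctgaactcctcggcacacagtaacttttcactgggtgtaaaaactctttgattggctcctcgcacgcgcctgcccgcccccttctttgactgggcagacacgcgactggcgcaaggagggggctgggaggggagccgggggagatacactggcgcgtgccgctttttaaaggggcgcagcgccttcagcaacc
Hes6: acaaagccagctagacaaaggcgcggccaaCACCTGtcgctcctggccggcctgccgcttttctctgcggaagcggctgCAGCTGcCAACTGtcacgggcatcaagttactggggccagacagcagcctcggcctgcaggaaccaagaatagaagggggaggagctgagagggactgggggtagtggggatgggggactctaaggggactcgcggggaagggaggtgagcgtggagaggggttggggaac
Spdef: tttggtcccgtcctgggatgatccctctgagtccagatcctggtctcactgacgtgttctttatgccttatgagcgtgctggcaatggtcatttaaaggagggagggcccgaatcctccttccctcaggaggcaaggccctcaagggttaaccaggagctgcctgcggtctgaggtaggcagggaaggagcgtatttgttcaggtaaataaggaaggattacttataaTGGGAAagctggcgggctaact
Atoh1 held neither motif, Hes6 held 3 E-boxes starting 220, 171 and 164 bases before the transcription start, and Spdef held 1 RBPJ core starting 22 bases before it. Of 32851 such windows in the table, 21.6% held the RBPJ core and 66.2% an E-box. The N-box CACNAG, a site of HES factors found in 36.7% of windows, was in none of these 3. A second RefSeq start of Hes6 has a window of its own (chr1:91413223-91413472, minus), with 1 E-box starting 150 and 1 N-box starting 237 bases before that start. Windows were found for 9 of the 10 genes. A match describes these letters only.

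The ligand gene Dll1 (chromosome 17, 15367354 to 15376872, minus strand), which marks secretory progenitors of the crypt, had at least 6 reads in every library. At 9 weeks it ran from 5.84 through a median of 23.3 to 50.5 CPM on RFD and from 8.10 through 31.3 to 66.4 CPM on HFD. At 22 weeks it ran from 9.68 through 22.8 to 41.0 CPM on RFD and from 11.2 through 20.2 to 50.8 CPM on HFD. The diets overlapped at both times, with log2 fold changes of 0.40 (SE 0.36, adjusted p = 0.593) and -0.10 (SE 0.29, adjusted p = 0.945). Over both times it was 0.13 (95% confidence interval -0.34 to 0.60).

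Dll4 (chromosome 2, 119325784 to 119335962, plus strand), which shares the work of Dll1 in the crypt and is also a ligand of blood vessels, ran from 0 to 31.1 CPM on RFD (median 2.50) and from 0 to 9.44 CPM on HFD (median 3.73) at 9 weeks. At 22 weeks the medians were 4.40 and 5.40 CPM, with highest values of 18.3 and 16.4. The log2 fold changes of -0.11 (SE 0.82) and 0.02 (SE 0.64) were far inside their errors. The sign changed at 9 weeks with limma on TPM, and at both times with single libraries left out.

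Jag1 (chromosome 2, 137081456 to 137116644, minus strand), a ligand of the Jagged family, had at most 17 reads in any library and 126 in all. Its highest levels were 2.50 CPM on RFD and 4.72 on HFD at 9 weeks and 5.21 and 4.57 CPM at 22 weeks. HFD libraries lay above the RFD median in 9 of 11 at 9 weeks and 10 of 12 at 22 weeks. That median was 1 read at each time (0.319 and 0.767 CPM), so these counts rest on few reads. The log2 fold change over both times was 0.66 (SE 0.54, 95% confidence interval -0.39 to 1.77, adjusted p = 0.454).

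The receptor gene Notch1 (chromosome 2, 26457903 to 26516663, minus strand), which maintains crypt progenitors, was lower in most HFD libraries at 9 weeks and not at 22 weeks. At 9 weeks it ran from 7.59 through a median of 24.7 to 57.2 CPM on RFD and from 1.69 through 11.6 to 33.5 CPM on HFD, and 9 of 11 HFD libraries lay below the RFD median. At 22 weeks it ran from 0 through 8.50 to 18.4 CPM on RFD and from 3.599 through 12.01 to 25.2 CPM on HFD, and 9 of 12 lay above the RFD median. The log2 fold change was -0.73 (SE 0.41, unadjusted p = 0.0862, adjusted p = 0.355) at 9 weeks and 0.19 (SE 0.38, adjusted p = 0.912) at 22 weeks, and the difference between them, 0.99 (SE 0.56), had an unadjusted p of 0.0856. Within the 3 number series, the difference in mean log2(CPM + 1) at 9 weeks was -0.27, -0.08 and -1.84, so the last series carried most of it.

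Notch2 (chromosome 3, 98013527 to 98150361, plus strand), the second receptor of the crypt, had the largest fold change at 9 weeks. It ran from 0 through a median of 1.14 to 5.84 CPM on RFD, with 0 reads in 5 of 11 libraries, and from 0 through 8.70 to 17.1 CPM on HFD, with 0 reads in 1 of 11. In 8 of 11 HFD libraries it was above every RFD library. The log2 fold change was 1.94 (SE 0.85, 95% confidence interval 0.23 to 3.71), with an unadjusted p of 0.0277 and an adjusted p of 0.215. With the tuft marker covariate it was 0.97 (SE 0.92, edgeR adjusted p = 0.856). Within the number series the difference in mean log2(CPM + 1) was 1.05, 2.30 and 0.57, higher on HFD in 3 of 3. The gene had at most 34 reads in any library at 9 weeks. On the TPM scale the group means were 0.368 ± 0.605 and 0.460 ± 0.289 (RFD and HFD, SD), and the medians 0.07 and 0.49. The log2 difference in limma was 0.17 (adjusted p = 0.78). It was taken on log2(TPM + 1), which makes differences small at such low levels, so it cannot be set beside 1.94.

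At 22 weeks Notch2 ran from 0.309 through 3.65 to 61.4 CPM on RFD and from 0 through 2.57 to 9.33 CPM on HFD, and its log2 fold change there was -1.15 ± 0.77 (SE), with an adjusted p of 0.634. The highest value was that of RFD mouse 3, the library with the fewest detected genes, which held 70 Notch2 reads and 0 reads of Atoh1, Spdef and Notch1. Without it the log2 fold change was 0.26 (adjusted p = 0.905). The diet effects at 22 and 9 weeks differed by -3.08 (SE 1.16, unadjusted p = 0.00965, adjusted p = 1), and by -1.63 without that library. Genes annotated inside Notch2 on the same strand (Gm42819 and Gm42820) and transcripts on the other strand of Notch1, Dll1, Dll4 and Gfi1 overlap these genes, and Smart-seq2 libraries do not mark strand.

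**Figure D2:**
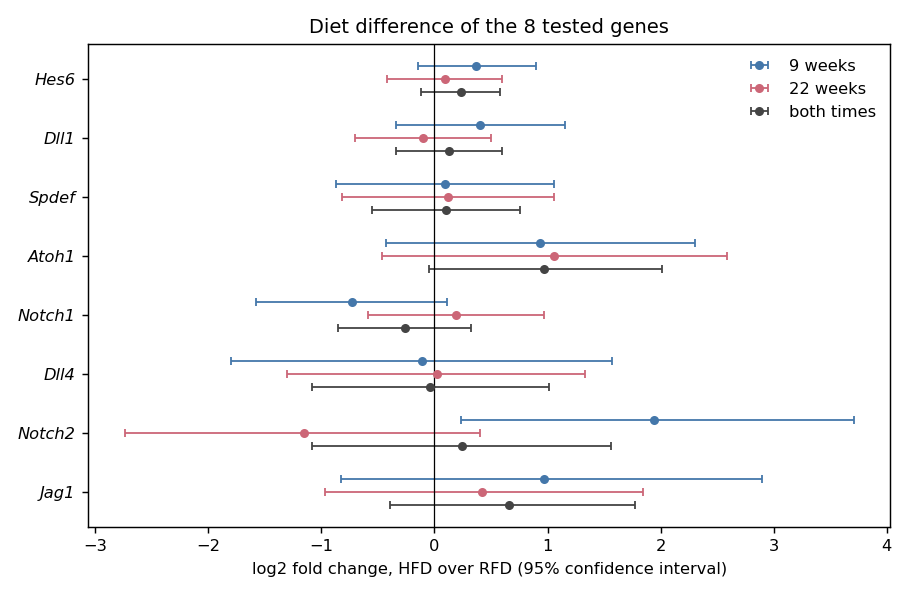
Log2 fold change of HFD over RFD on the horizontal axis for the 8 tested genes, at 9 weeks, at 22 weeks and over both times; points are edgeR estimates and bars 95% confidence intervals. Every interval includes 0 except that of Notch2 at 9 weeks (0.23 to 3.71), which did not pass adjustment over all genes.

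Several of the 10 genes varied with the cell type markers from library to library. For each of the 8 tested genes, log2(CPM + 1) was compared with the mean log2(CPM + 1) of 10 marker lists over the 45 libraries, both as deviations from the mean of the library's own group. Of the 80 pairs, 25 had an adjusted p under 0.1 for Spearman's rho (two-sided permutation test with 100000 resamples, adjusted over the 80), 18 positive and 7 negative. Points share a library, so markers of different cell types are not independent of each other. The share of such pairs over all tested genes was not computed, so the 25 cannot be called particular to these genes.

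Atoh1 followed the goblet markers most closely. Pearson's r was 0.78 (permutation p = 1e-05, adjusted p = 0.0002) and rho 0.71 (permutation p = 1e-05, the smallest the resamples can give, adjusted p = 0.000267). Without the 2 libraries farthest from the median goblet level, r was 0.77. By number series rho came to 0.70, 0.75 and 0.68, and within 9 and 22 weeks 0.69 (adjusted p = 0.0232) and 0.71 (adjusted p = 0.0128). In TPM it was 0.66. Of the 8 libraries with the lowest goblet sum (69.6 to 507.7 CPM), 7 had 0 Atoh1 reads, against 2 of the other 37. The 9 libraries with 0 Atoh1 reads held 927740 to 3446482 reads on genes. They include RFD mouse 3 at 22 weeks, which had the fewest detected genes (8580), and the part of detection in these zeros was not tested. Atoh1 also followed the stem and cycling markers (rho 0.63) and the Paneth markers (rho 0.61) and ran against the tuft markers (rho -0.54, permutation p = 0.00014, adjusted p = 0.002).

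Notch2 ran against the tuft markers as well (r -0.57, permutation p = 8e-05, adjusted p = 0.00107; rho -0.59, permutation p = 1e-05, adjusted p = 0.000267), with r -0.58 without the 2 farthest libraries and rho of -0.40, -0.49 and -0.62 within the number series. In TPM its rho was -0.24 (adjusted p = 0.267) and within 9 weeks -0.48 (adjusted p = 0.216), so this relation depended on the scale. The tuft sum itself was lower on HFD, with medians of 16997 and 7131 CPM at 9 weeks and 19018 and 14759 CPM at 22 weeks. Of the 14 tuft markers, 3 fell over both times (Il25, Sh2d6 and Alox5ap, log2 fold changes of -1.25, -0.92 and -0.86). This was 21.4%, beside 12.0% of all tested genes, and 0 of the 14 were called at either time alone.

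**Figure D3:**
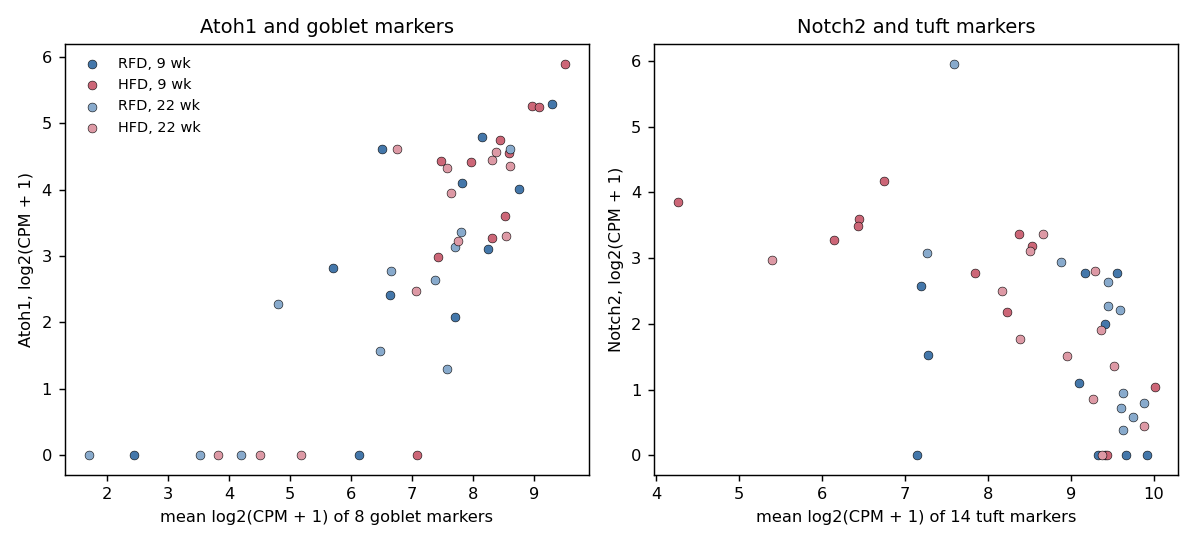
Left, Atoh1 against the mean of 8 goblet markers; right, Notch2 against the mean of 14 tuft markers; both axes are log2(CPM + 1), each point is 1 of the 45 libraries, and colours give diet and time. Atoh1 is higher where the goblet markers are higher, and 7 of the 9 libraries at 0 Atoh1 are among the 8 lowest for summed goblet level; the single high Notch2 point is RFD mouse 3 at 22 weeks.

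Spdef followed the Paneth markers (r 0.64, permutation p = 1e-05, adjusted p = 0.0002; rho 0.54, permutation p = 0.00015, adjusted p = 0.002; r 0.55 without the 2 farthest libraries), but not in TPM (rho 0.28, adjusted p = 0.195) or within 9 weeks (0.49, adjusted p = 0.216), while with the goblet markers r was 0.37 (permutation p = 0.0127, adjusted p = 0.0461) and rho 0.27 (permutation p = 0.0772, adjusted p = 0.193). Within the number series its rho with the Paneth markers was 0.61, 0.36 and 0.60. Dll4 followed the Paneth markers (r 0.44, permutation p = 0.00276, adjusted p = 0.017; rho 0.48, adjusted p = 0.0092) and Jag1 the stem and cycling markers (r 0.48, permutation p = 0.00074, adjusted p = 0.00592; rho 0.43, adjusted p = 0.0261). Without the 2 farthest libraries these r were 0.39 and 0.38, and within the number series the rho were 0.59, 0.47 and 0.34 for Dll4 and 0.48, 0.42 and 0.60 for Jag1. Neither passed in TPM (rho 0.32, adjusted p = 0.129, and 0.35, adjusted p = 0.106), nor did Dll4 within 22 weeks (0.37, adjusted p = 0.321) or Jag1 within 9 weeks (0.38, adjusted p = 0.307). Dll4, a gene of endothelium, had a rho of -0.12 with the endothelial markers.

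Hes6 ran against the endothelial markers (r -0.42, permutation p = 0.00532, adjusted p = 0.025; rho -0.50, permutation p = 0.00044, adjusted p = 0.00503; r -0.52 without the 2 farthest libraries), with rho of -0.89, -0.59 and -0.16 within the number series. It did not pass in TPM (rho -0.35, adjusted p = 0.106) or within 9 weeks (-0.35, adjusted p = 0.328). Their summed level was low, between 0 and 138.3 CPM, and only 3 of the 6 endothelial markers passed the low-count filter. Notch1 ran against the enterocyte markers (r -0.37, permutation p = 0.0115, adjusted p = 0.0438; rho -0.34, adjusted p = 0.0868), but r was -0.18 without the 2 farthest libraries, so on that measure the relation rested on those libraries. Its rho was 0.02 in the series of multiples of 10, 0.06 in TPM (adjusted p = 0.787), -0.16 within 9 weeks (adjusted p = 0.683) and -0.59 within 22 weeks (adjusted p = 0.0405). Dll1 passed with none of the 10 lists, and its largest rho was -0.24, with the enteroendocrine markers (r -0.25, permutation p = 0.0939; rho permutation p = 0.116, adjusted p = 0.257).

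**Figure D4:**
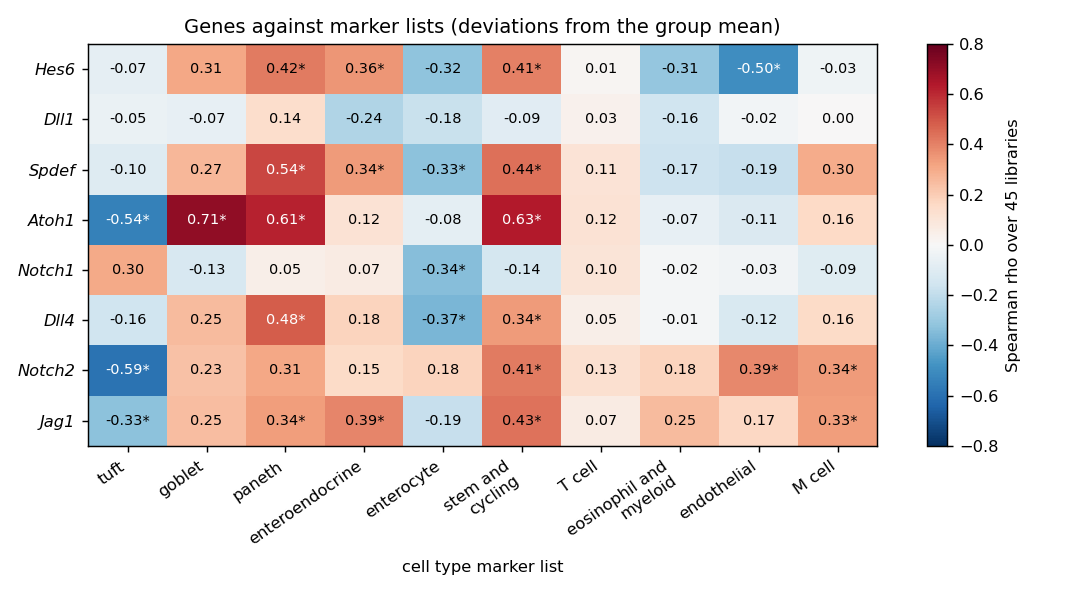
Spearman's rho of each of the 8 tested genes (rows) with the mean of each marker list (columns) over 45 libraries, as deviations from the group mean; asterisks mark an adjusted permutation p under 0.1. Atoh1 with goblet markers (0.71) is the highest value and Notch2 with tuft markers (-0.59) the lowest.

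Among themselves, 10 of the 28 pairs of tested genes were related with an adjusted permutation p under 0.1 for rho, and each of the 10 was positive. The closest were Hes6 with Spdef (r 0.61, permutation p = 2e-05; rho 0.60, permutation p = 7e-05, adjusted p = 0.00196) and Atoh1 with Spdef (r 0.56, permutation p = 7e-05; rho 0.51, permutation p = 0.00032, adjusted p = 0.00448). In the 3 series taken alone, rho came to 0.54, 0.62 and 0.57 for the first and 0.47, 0.58 and 0.42 for the second. Without the 2 libraries farthest from the median of Spdef, r was 0.54 and 0.44. Jag1 with Notch2 came next (r 0.40, permutation p = 0.00738; rho 0.45, permutation p = 0.00203, adjusted p = 0.0189), with r 0.45 without the 2 farthest libraries and rho of 0.20, 0.43 and 0.71 within the series. For Atoh1 with Hes6 rho was 0.40 (permutation p = 0.00757, adjusted p = 0.0391) and r 0.41 (permutation p = 0.00551), with r 0.30 without the 2 farthest libraries and rho of 0.53, 0.45 and 0.18 within the series. Dll1 and Notch1 were in none of the 10. The share of pairs that pass was not computed over all tested genes, so the 10 of 28 is a description. Over the 45 libraries Hes6 followed the total reads (r 0.44, permutation p = 0.00315; rho 0.53, permutation p = 0.00027, adjusted p = 0.00216) and Notch2 ran against them (r -0.32, permutation p = 0.0358; rho -0.40, permutation p = 0.00658, adjusted p = 0.0263), and the part of depth in these relations was not tested.

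Among 10021 genes with over 5 reads in 23 or more libraries, the 3 whose deviations were most like those of Atoh1 were Agr2 (rho 0.76), a protein disulfide isomerase of mucus-secreting cells, Spink4 (0.76), a secreted protein of goblet cells, and Ccnd2 (0.74), a cyclin. Agr2 and Spink4 are 2 of the 8 goblet markers. For Spdef they were Gm830, Ergic1 and Rnase4 (0.66, 0.65 and 0.63), and for Hes6 Noxo1, Aarsd1 and Ddost (0.66, 0.65 and 0.65). Notch1 was most like Dock9, Setd5 and Fbxo30 (0.67, 0.60 and 0.58) and Dll4 like Prpf4, Xrcc5 and Prkra (0.65, 0.65 and 0.64). For Dll1 the highest values were lower, 0.50 for Ppp1r16a and C87436 and 0.48 for Dnmbp. These values are the highest among all the genes compared, over 45 libraries that share their depth and cell mixture, and are given as a description.

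The rest of the pathway was examined in 4 lists. Of 6 further receptors and ligands, 2 were tested and 0 were called at either time or over both. Jag2 and Notch4 had log2 fold changes over both times of -0.57 and -0.24 (SE 0.66 and 0.65), and Notch3, Dll3, Dlk1 and Dlk2 had 10 to 54 reads in all libraries together and were not tested. Of 27 genes of receptor processing, trafficking and ligand activation, 25 were tested and 0 were called. Their levels spanned a wide range. The gamma-secretase subunits Psenen and Ncstn averaged 156.4 and 50.3 TPM and Aph1b and Aph1c 1.21 and 1.33 TPM, the proteases Adam10 and Adam17 13.6 and 4.46 TPM, and Numb, an inhibitor of Notch, 39.2 TPM. The smallest unadjusted p over both times belonged to Dtx2 and Psenen, with log2 fold changes of -0.91 (SE 0.36, adjusted p = 0.11) and -0.24 (SE 0.11, adjusted p = 0.15), and then to Itch (0.35) and Neurl1a (-0.70).

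Of 17 genes of the nuclear complex and its targets, 10 were tested, and 1 was called over both times (10%, near the 12.0% of all tested genes). Kat2a, a histone acetyltransferase that can act with the Notch complex and with many other factors, rose on HFD. It ran from 0 through a median of 7.58 to 35.4 CPM on RFD and from 0.523 through 29.0 to 50.1 CPM on HFD at 9 weeks, and from 0 through 2.45 to 14.8 and from 2.96 through 13.7 to 28.3 CPM at 22 weeks. The groups overlapped, with a log2 fold change over both times of 1.46 (SE 0.41, adjusted p = 0.023), while the adjusted p was 0.212 at 9 weeks and 0.238 at 22 weeks. Over both times Kat2a was called in 9 of 10 alternative fits. In the other, the tuft marker covariate took it to 1.07 on the log2 scale (SE 0.38) and its adjusted p to 0.147. Among further HES and HEY family genes, Hes3, Hes5, Hes7, Hey1, Hey2 and Heyl had 5 to 101 reads in all libraries together and were not tested. Nrarp, a target that dampens Notch signals, had 186 reads and averaged 0.704 TPM, and Rbpj itself averaged 4.06 TPM. Spen, Maml3, Hes2 and Ep300 had log2 fold changes over both times of -0.51, -0.57, -0.98 and -0.43 with adjusted p from 0.166 to 0.261.

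Of 27 other regulators of secretory fate, 20 were tested, and 1 was called over both times (5%, under the 12.0% of all tested genes). Pou2f3, the factor required for tuft cells, fell. Its level at 9 weeks ran from 37.9 through a median of 157.5 to 270.7 CPM on RFD and from 0 through 43.3 to 194.4 CPM on HFD, and at 22 weeks from 29.0 through 144.7 to 213.3 CPM and from 3.90 through 94.0 to 187.9 CPM. Its log2 fold change was -0.85 over both times (SE 0.31, adjusted p = 0.0816), -1.19 at 9 weeks (adjusted p = 0.177) and -0.57 at 22 weeks (adjusted p = 0.606). The call over both times was lost when any of 15 of the 45 libraries was left out of the main fit. With all 45 libraries, it was lost with the tuft marker covariate (-0.40, adjusted p = 0.383) and with the T cell marker covariate (-0.83, adjusted p = 0.18). It was also lost with limma on TPM (-0.99, adjusted p = 0.135) and with no low-count filter (-0.84, adjusted p = 0.106). Bhlha15, Foxa3 and Creb3l4, factors of secretory cells, had log2 fold changes of 1.43, 1.00 and 1.03, and Sox9, a factor of the crypt base, of -0.61, with adjusted p from 0.109 to 0.177. The remaining marker lists bear on the same libraries, and 12.0% of all tested genes were called over both times. In that comparison 1 of 7 Paneth markers rose (Ang4), 1 of 8 stem and cycling markers rose (Lgr5), 3 of 6 tested T cell markers fell (Lck, Gzma and Cd7), and 2 of 9 enteroendocrine markers fell (Cck and Nts). At 22 weeks 4 of the 9 enteroendocrine markers fell (Cck, Nts, Ghrl and Pyy), beside 0.728% of all tested genes called. At 9 weeks 0 of the 9 were called, beside 3.07%, and the difference between times passed for 1 of the 9, beside 0.00713%. Over both times, of 9 enterocyte markers 2 rose (Rbp2 and Fabp2) and 1 fell (Sis), of 3 tested M cell markers 1 rose (Ccl9), and of the 5 eosinophil and myeloid and 3 endothelial markers tested 0 were called. The summed T cell level was at most 117.4 CPM.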

How the data were processed

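The authors sorted EpCAM+Siglec-F+ cells, with a CD45 gate on which their methods conflict, and made Smart-seq2 libraries with Nextera XT. Per the submitters' processing notes, reads were trimmed with cutadapt 1.15, aligned with STAR 2.6.0 to GRCm38 and counted with RSEM. The deposited tables hold expected counts (8.79% of those above 0 were not whole, and all were rounded) and TPM, which the authors computed per transcript length. FPKM values were not used, nor were 24 columns that matched no sample. The authors' weighting by cell proportions was not repeated.

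Genes with more than 5 reads in at least 6 of 45 libraries (14020) were tested with edgeR 4.0.16 (quasi-likelihood, TMM) in R 4.3.3, HFD against RFD within each set, over both sets with set as a term, and as the interaction. The adjusted p threshold was 0.1. CPM are counts scaled by TMM-normalized library size. DESeq2 1.42.0 and limma 3.58.1 on log2(TPM + 1) were alternatives. Correlations used scipy 1.17.1 under Python 3.11.15. Steps across many genes were tested on simulated data. Replicates are different mice.

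The 10 genes, the pathway lists and the marker lists (tuft, goblet, Paneth, enteroendocrine, enterocyte, stem and cycling, T cell, eosinophil and myeloid, endothelial, M cell) were chosen with earlier results of these data known. Other genes were named where called, or for the smallest p over both sets in a pathway list, and each gene's marker relation is the one with the largest absolute rho; other marker relations, and the TPM levels given for genes of the pathway lists, were chosen after their values were seen. The pairs of the 10 genes, the fit without 4 libraries and the robust spread were also added after seeing the data.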

Additional observations from a re-analysis of the deposited data

How the results depend on the processing

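No paired analysis was possible because the diets compared share no mouse number and the labels do not say which mice were taken on the same day, although per the methods a cage of each group was taken on each of 3 days. The number series as a term, the nearest to such a block, changed no call of the 8 genes. The number of genes called at 9 weeks was 1555 with DESeq2, 9 with limma on TPM, 210 with no low-count filter, 254 without the 2 libraries of low total, 16 with the tuft and 14 with the T cell marker covariate, 667 in 1 fit over 4 groups and 28 without the 4 libraries that stand apart. At 22 weeks it was 347 with DESeq2, 51 with limma, 163 with the number series as a term, 43 with the T cell covariate and 238 without the 4 libraries. Over both times it was 2808, 941, 422 and 761 with DESeq2, limma, the tuft covariate and the T cell covariate. For the difference between times it was 0 with DESeq2, limma, the number series, low totals left out, the tuft covariate and the robust spread, and 68 with no filter. Leaving out 1 library gave 48 to 2004 genes at 9 weeks (without HFD mouse 6 and HFD mouse 64), 63 to 649 at 22 weeks (without RFD mouse 10 and RFD mouse 1), 1258 to 2836 over both and 0 to 3 for the difference. The causes were not tested.

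Of 336 results of the 8 genes under an alternative, 297 kept their direction and their side of the threshold, 7 kept their direction but had no adjusted p from DESeq2, and 32 changed sign, with adjusted p of 0.67 or more. The 297 include 8 that could not change, because no library of low total was from 22 weeks and leaving them out repeated the main fit there. At 22 weeks the fit without the 4 libraries left out only RFD mouse 3. At 9 weeks the tuft covariate gave Atoh1 -0.11, Jag1 -0.11 and Spdef -0.60, limma gave Dll4 0.13 and Spdef -0.43, the number series Dll4 0.02 and Spdef -0.11, the T cell covariate Spdef -0.02, low totals left out Dll4 0.28, and the 4 libraries left out Dll4 0.16. At 22 weeks leaving out the 4 libraries gave Hes6 -0.02, Dll4 -0.11, Notch2 0.26 and Spdef -0.01. Over both times Dll4 was 0.10 with limma, 0.03 with no filter, 0.04 with the number series, 0.17 without low totals, 0.05 with the T cell covariate and 0.03 without the 4 libraries, Notch2 was -0.02 with limma and -0.41 with the tuft covariate, and Spdef was -0.07 and -0.22. For the difference between times limma gave Hes6 0.05, Dll4 -0.06 and Jag1 0.01, the tuft covariate Jag1 0.50, low totals left out Dll4 -0.26 and Spdef -0.04, and the 4 libraries left out Dll4 -0.25 and Spdef -0.03.

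With 1 library left out, 1028 of 1080 results stayed as they were, 51 changed sign and 1 passed the threshold (Atoh1 over both times). The ranges that crossed 0 were at 9 weeks Dll4 -0.28 to 0.27 and Spdef -0.08 to 0.26, at 22 weeks Hes6 -0.02 to 0.29, Dll1 -0.28 to 0.09, Dll4 -0.20 to 0.31, Notch2 -1.33 to 0.26 and Spdef -0.01 to 0.42, over both times Dll4 -0.15 to 0.15, and for the difference Atoh1 -0.22 to 0.82, Dll4 -0.28 to 0.45, Spdef -0.06 to 0.32 and Kat2a -0.17 to 0.63. Of the 80 relations with markers, 10 passed in TPM, 6 within 9 weeks and 10 within 22 weeks, and Notch1 with the enterocyte markers had rho 0.061 in TPM. Low counts limited Hes1, Gfi1, Jag1 and Notch2 most.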

Other observations

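The summed level of the 10 genes averaged 61.7 ± 19.7 and 68.8 ± 20.4 TPM on RFD and HFD at 9 weeks (SD, n = 11 each) and 56.9 ± 22.8 and 64.1 ± 19.0 TPM at 22 weeks (SD, n = 11 and 12). Reads of all 10 genes were present in 7 of the 45 libraries, and the fewest, 4 of the 10, were in the library of HFD mouse 64 at 9 weeks.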
